A study of Mus musculus with 11 samples.

Results

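The genes described here are the TGF-beta family members of a mouse inflammation panel: the ligand genes Tgfb1, Tgfb2 and Tgfb3, the type 1 receptor gene Tgfbr1 and the inhibitory Smad gene Smad7. They were chosen by symbol (TGFB1, TGFB2, TGFB3, TGFBR1 and SMAD7 as the tables spell them), and all 5 were found among the 248 genes of the panel. Transcripts were counted on the NanoString nCounter, in which colour-coded probes are counted one by one, in corneas of female C57BL/6 mice kept for 5 days under desiccating stress. All groups received this stress, a fan-driven draft at low humidity with scopolamine in the drinking water, and no unstressed corneas were analysed here. The eye drops, given 2 times a day, held vehicle (3 samples), 10 µM pan (4 samples) or 10 µM C1 (4 samples). Both compounds are small synthetic mimics of neurotrophin loops. C1 is a partial agonist selective for the neurotrophin receptor TrkC, and pan activates TrkA, TrkB and TrkC. One age label reads 3 months for all 11 samples. A second age label goes against it: 5 samples, namely pan replicate 4 and the whole C1 group, carry 22 to 24 months, and the other 6 carry 2 to 3 months. The study's methods give an age range in weeks that starts below both labels and ends within the 2 to 3 month label. The samples are numbered within each group, and neither the labels nor the methods say how many corneas went into one RNA sample. The p-values therefore measure the spread between these samples, whatever its source.

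TGF-beta ligands are secreted in a latent form and, once released, bind a type 2 receptor that recruits and activates the type 1 receptor encoded by Tgfbr1. The activated receptor phosphorylates Smad2 and Smad3, which enter the nucleus with Smad4 and change transcription. Smad7 is itself induced by this pathway and shuts it down by blocking the type 1 receptor. In the cornea the pathway is known for its part in wound healing and scarring, and TGF-beta made by goblet cells is among the factors that restrain immune cells at the ocular surface.

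Each value is a normalized count, the number of counts of a gene's probe in a sample divided by a factor from housekeeping genes. Total counts over the panel ranged from 64156 to 646446. All C1 totals lay above all vehicle totals (165828 to 525997 against 91955 to 133098), and pan replicate 4, with the highest total, had 6.38 times the next highest pan total. Treatment with C1, the older age label and a high total coincide, so their effects on a C1 difference cannot be told apart. Pan replicate 4 is the only sample outside C1 with that label and such a total, and the members' differences that include it are given with and without it. The labels name corneal epithelium, but the panel holds 0 keratin genes, so the label could not be checked against defining markers.

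All 5 genes lay above a mean background in every sample. As a measure of background, 8 genes of other tissues that a cornea should not make averaged 3.98 to 13.1 normalized counts per gene, according to the sample. The receptor probe gave between 323 and 1407 times this background, the Tgfb1 probe 60.0 to 243 times and the Smad7 probe 19.2 to 52.4 times. The Tgfb3 probe gave 3.48 to 10.8 times and the Tgfb2 probe 2.43 to 7.27 times, so these ligands were measured near the lower end of the assay. In the vehicle samples the mean log2 normalized count of Tgfbr1 ranked 9 among the 248 panel genes, that of Tgfb1 41, Smad7 93, Tgfb3 121 and Tgfb2 132. The ranks are of probe signals, and each probe has its own efficiency, so they do not order transcript numbers.

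**Figure D1:**
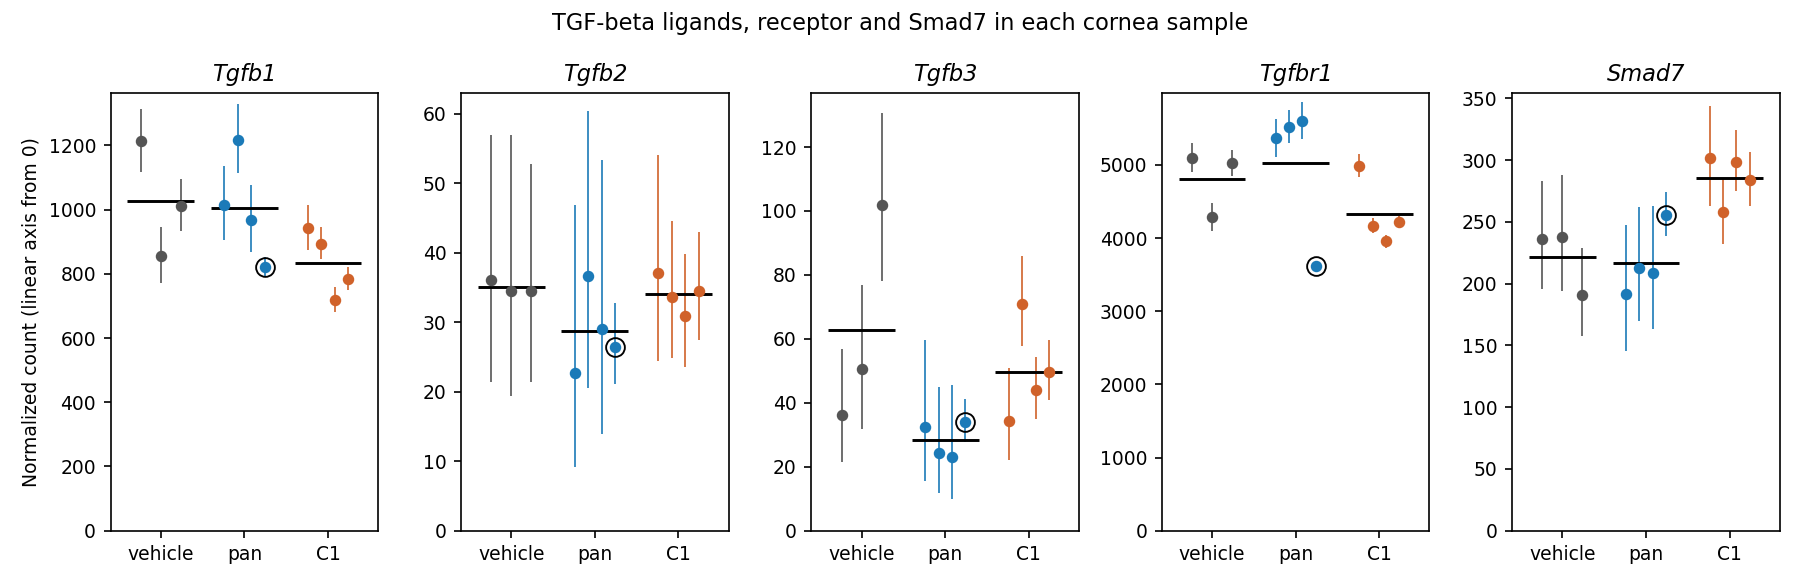
Normalized counts (linear axes from 0) of the 5 genes in each sample, by eye drop group; points stand in replicate order, horizontal bars are group means, vertical lines are exact 95% Poisson intervals that cover counting error only, and a ring marks pan replicate 4. All 4 C1 samples of Smad7 lie above the vehicle samples and all 4 pan samples of Tgfb3 lie below them, while the ringed sample is the lowest pan sample for Tgfb1 and Tgfbr1 and the highest for Tgfb3 and Smad7.

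Among the ligands, Tgfb1 (gene ID 21803), the form most often linked to immune regulation and fibrosis, had similar ranges in vehicle and pan corneas. In the vehicle samples it had 1213, 855 and 1011 normalized counts in replicates 1 to 3. In the pan samples it had 1016, 1218, 968 and 820.4, and in the C1 samples 942, 894, 719 and 785. The means were 1027 ± 180 (SD, n = 3), 1005 ± 164 (SD, n = 4) and 835 ± 102 (SD, n = 4). The highest C1 sample lay below the vehicle mean, but the groups overlapped in all 3 comparisons. Pan minus vehicle was -0.03 on the log2 scale (standard error 0.24, adjusted p = 0.945 from limma). Its sign turned in 6 of 18 alternatives, among them the fit without pan replicate 4 (0.06). The second age label as a covariate gave this same value, so the 6 are not separate checks. The log2 difference of C1 against vehicle was -0.29 (standard error 0.17, adjusted p = 0.567), with a 95% confidence interval from -0.70 to 0.12. With the second age label as a covariate this value was 0.08 (standard error 0.34).

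Tgfb2 (gene ID 21808), a ligand well known from ocular tissues and aqueous humour, had the lowest mean of the 5 genes with vehicle and with C1, and with pan a mean of 28.7, next to 28.5 for Tgfb3. It had 36.0, 34.6 and 34.5 normalized counts in the vehicle samples, 22.7, 36.6, 29.0 and 26.4 in the pan samples, and 37.1, 33.7, 31.0 and 34.6 in the C1 samples. The numbers of probe counts behind them were small, 15 to 21 with vehicle, 7 to 84 with pan and 27 to 80 with C1. The vehicle samples differed by less than counting error, with a coefficient of variation of 2.44% where counting alone gives 23.8%, and the same held in the pan group (20.5% against 28.3%) and in the C1 group (7.49% against 14.8%). Of the pan samples, 3 of 4 were below the lowest vehicle sample and replicate 2 was above the highest. The 7 counts of pan replicate 1 allow, by an exact 95% Poisson interval, 2.81 to 14.4 counts. With pan the gene differed from vehicle by -0.31 on the log2 scale (standard error 0.23, adjusted p = 0.594 from limma), with a 95% interval from -0.85 to 0.23, and by -0.28 without pan replicate 4. For C1 it was -0.04 (standard error 0.12, adjusted p = 0.912), with an interval from -0.33 to 0.24.

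Tgfb3 (gene ID 21809), the ligand associated with scarless repair in other tissues, showed the widest spread of the 5 genes and the only non-overlapping pan and vehicle groups. It had 36.0, 50.7 and 102 normalized counts in vehicle replicates 1 to 3. In the pan samples it had 32.5, 24.4, 23.2 and 34.0, and in the C1 samples 34.4, 70.8, 43.9 and 49.7. All 4 pan samples were thus below the lowest vehicle sample, by a margin of only 34.0 against 36.0, while the C1 samples overlapped the vehicle samples and lay above the pan samples. The means were 62.9 ± 34.6 (SD, n = 3) with vehicle and 28.5 ± 5.50 (SD, n = 4) with pan, while C1 gave 49.7 ± 15.4 (SD, n = 4). Groups with all pan samples lower were found for 8.47% of the panel genes, and Tgfb3 was the 1 member of the 5 among them. Among the 131 genes with a mean log2 of 5 or more, to which all members belong, groups that did not overlap in either direction made up 4.58%.

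The log2 difference of Tgfb3 between pan and vehicle was -1.02 (standard error 0.37, unadjusted p = 0.0259 and adjusted p = 0.268 from limma), with a 95% interval from -1.89 to -0.16. It did not pass an adjusted p of 0.05, and the two-sided exact permutation test gave p = 0.0571, the smallest that 3 samples against 4 allow. Its size depended on vehicle replicate 3, without which it was -0.60 (adjusted p = 0.621), and without vehicle replicate 1 it was -1.36 (adjusted p = 0.141). Leaving out pan replicate 4 gave -1.11, which is the comparison within the 2 to 3 month label. The probe counts behind these values were 18 to 62 in the vehicle samples and 10, 10 and 8 in pan replicates 1 to 3, against 108 in pan replicate 4. The spread of the vehicle samples, with a coefficient of variation of 55.0%, exceeded the 19.8% expected from counting, whereas that of the pan samples (19.3%) did not exceed theirs (28.9%). For C1 against vehicle the log2 difference was -0.25 (standard error 0.40, adjusted p = 0.852), and without vehicle replicate 3 it changed direction to 0.17.

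The profile nearest to that of Tgfb3 belonged to a macrophage gene. Among the same 131 genes, C1qa, which encodes a chain of complement C1q and is made mainly by macrophages, differed least from Tgfb3 in its log2 values over the 11 samples. After each gene was centred on its own mean, their root mean square difference was 0.38, against a spread of 0.61 for Tgfb3 itself and a median difference of 0.67 over 130 genes. C1qa had 58.4 ± 17.9 normalized counts (SD, n = 3) with vehicle and 39.6 ± 8.26 (SD, n = 4) with pan, while C1 gave 67.1 ± 11.2 (SD, n = 4). The next nearest gene was C1s, a complement protease gene that RefSeq names C1s1, at 0.48. The summed level of 9 macrophage genes was 376 to 465 normalized counts in the vehicle samples, 232 to 385 in the pan samples and 413 to 556 in the C1 samples. H2-Eb1, an MHC class II gene, weighed most in this sum, with means of 156 with vehicle, 111 with pan and 186 with C1. The log2 difference of pan against vehicle was below 0 for 8 of these 9 genes, with a median of -0.49 beside -0.20 over all genes. In limma 0 of the 9 passed the adjusted threshold and 0 had an unadjusted p under 0.05. Over the whole panel these shares were 2.02% and 12.5%. Trem2 had at most 3 counts in every vehicle sample, and log2 values cannot show a count of 0. The part of macrophages in the Tgfb3 values was not tested. Off-tissue genes, which are close to the limit of detection, lay lower with pan as well. Of these 8 genes 7 had a log2 difference below 0, with a median of -0.69 beside -0.20 over all genes. Of the 8, 1 passed the test, Mbl2 (-1.59, adjusted p = 0.0305 from limma), where 2.02% of the panel did. Mbl2 had 1 probe count in each of pan replicates 1 to 3. Of 5 T cell genes 3 were below 0 and 2 above, with Cd40lg the highest (1.14, adjusted p = 0.239 from limma). Of the 5, 1 passed, Ifng (-2.40, adjusted p = 0.00246), where 2.02% of the panel did. Ifng had 1 probe count in each of pan replicates 1 to 3, 10 in pan replicate 4 and 6 to 10 in the vehicle samples. With the mean of the off-tissue genes subtracted in each sample, the Tgfb3 difference was -1.07 (adjusted p = 0.741). In such bulk samples fewer cells of a type and less RNA per cell cannot be told apart.

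**Figure D2:**
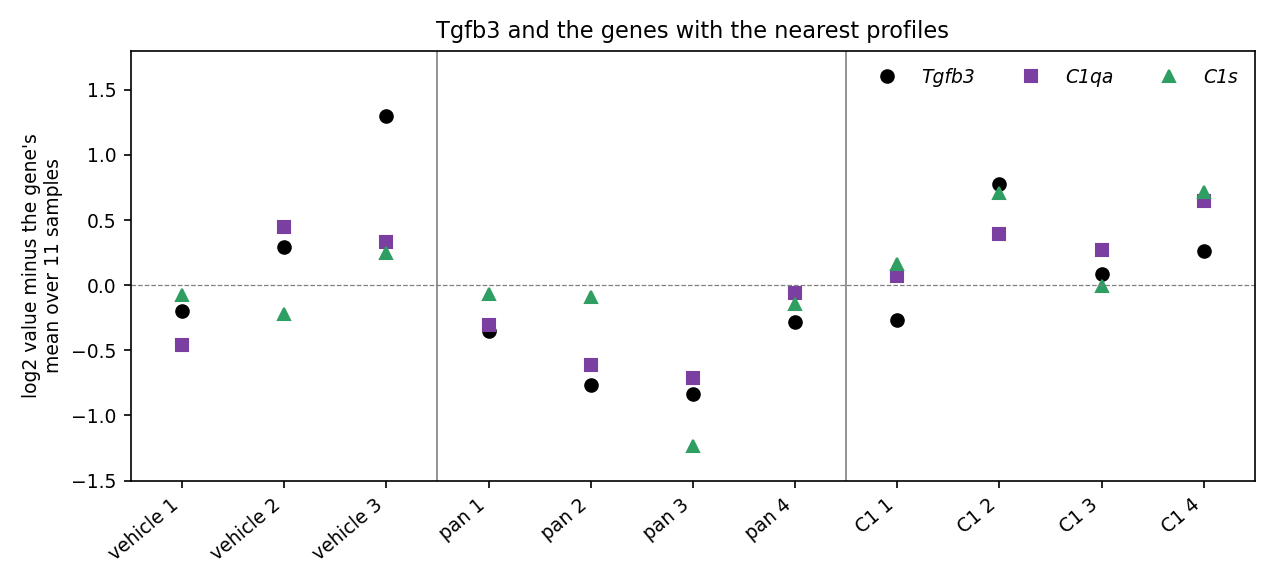
Log2 value of Tgfb3, C1qa and C1s in each of the 11 samples, minus the gene's own mean over the samples; vertical lines part the vehicle, pan and C1 groups. Tgfb3 (circles) is below its mean in all 4 pan samples, with C1qa (squares) and C1s (triangles) also below theirs, and Tgfb3 in vehicle replicate 3 is the highest point of the plot.

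The receptor gene Tgfbr1 (gene ID 21812), whose kinase passes the signal on to the Smads, was counted 1652 to 11484 times per sample, so counting error was small. It had 5097, 4285 and 5021 normalized counts in the vehicle samples. In the pan samples it had 5362, 5522, 5604 and 3614, and in the C1 samples 4989.6, 4168, 3953 and 4219.9. Pan replicates 1 to 3 were above every vehicle sample and pan replicate 4 was below every vehicle sample. Pan minus vehicle was 0.05 on the log2 scale (standard error 0.24, adjusted p = 0.942 from limma), or 0.20 without pan replicate 4. In the C1 group 3 of 4 replicates lay under the lowest vehicle value. The log2 difference of C1 was -0.15 (standard error 0.14, adjusted p = 0.787), with a 95% interval from -0.49 to 0.19. The lowest 4 of the 11 values belonged to pan replicate 4 and C1 replicates 2 to 4, which also had the 4 highest total counts. Adjusted for the log2 total count the C1 difference was 0.12 (standard error 0.17), and with the second age label it was 0.46 (standard error 0.28).

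Smad7 (gene ID 17131), the feedback inhibitor of the receptor, was the member whose C1 samples stood apart from vehicle. It had 236, 237 and 191 normalized counts in the vehicle samples and 192, 212, 209 and 256 in the pan samples. In the C1 samples it had 301, 258, 299 and 284, all above the highest vehicle sample. Groups with all C1 samples higher were found for 6.05% of the panel genes, and Smad7 was the 1 member of the 5 among them. Among the 131 genes with a mean log2 of 5 or more, 13.0% had groups that did not overlap in either direction. The means were 221 ± 26.6 (SD, n = 3) with vehicle and 217 ± 27.2 (SD, n = 4) with pan, while C1 gave 285 ± 19.8 (SD, n = 4). By the fitted log2 difference the C1 level was 1.29 times that of vehicle. The log2 difference of C1 was 0.37 (standard error 0.14, unadjusted p = 0.0335 and adjusted p = 0.436 from limma), with a 95% interval from 0.04 to 0.70. It did not pass the threshold, and the exact permutation p was 0.0571. With 1 sample left out it ranged from 0.27 to 0.42. For pan the log2 difference was -0.03 (standard error 0.22, adjusted p = 0.945), with a sign that 5 of 18 alternatives turned. Without pan replicate 4 it was -0.11.

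The Smad7 values divided along the second age label. The 6 samples labelled 2 to 3 months had 191 to 237 normalized counts and the 5 labelled 22 to 24 months had 256 to 301, pan replicate 4 among them. Within the older label the C1 mean exceeded pan replicate 4 by 0.16 on the log2 scale, in 4 of 4 C1 samples, and within the younger label pan replicates 1 to 3 differed from vehicle by -0.11. When the label entered a joint fit of the 3 groups as a term, the C1 difference from vehicle was 0.05 (standard error 0.28, adjusted p = 0.979). In that fit the age term rests on pan replicate 4 alone. Adjusted for the log2 total count it was 0.26 (standard error 0.18, adjusted p = 0.634).

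**Figure D3:**
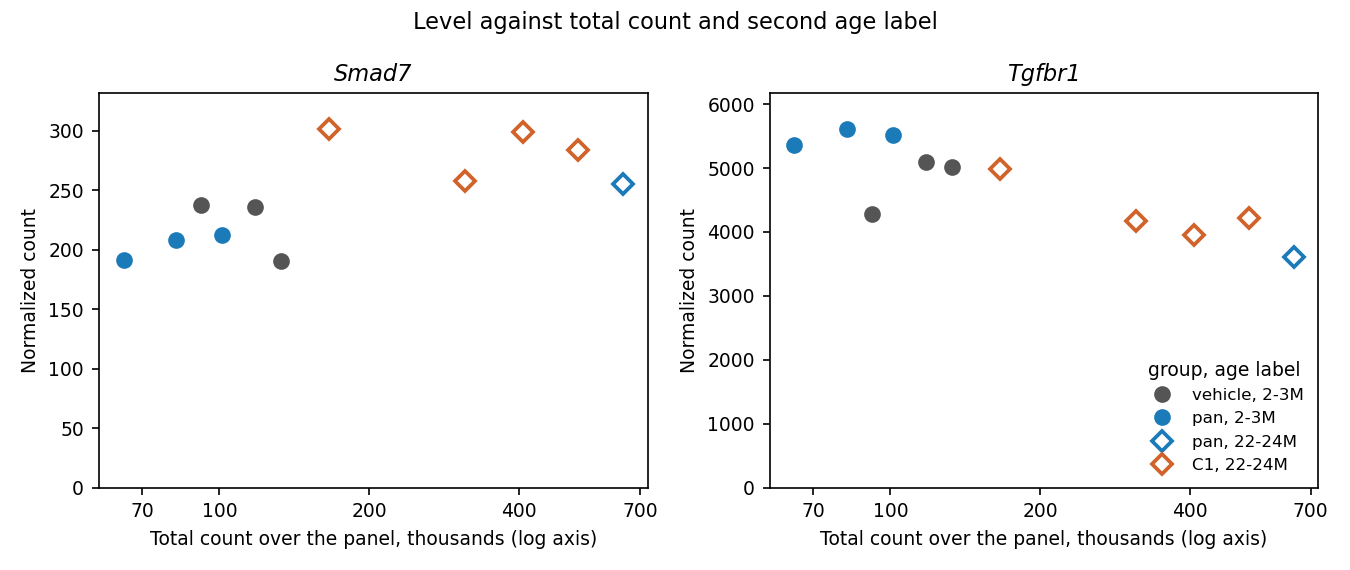
Normalized counts of Smad7 and Tgfbr1 (linear axes from 0) against the total count over the panel (log axis) in the 11 samples, coloured by group; filled circles carry the 2 to 3 month label and open diamonds the 22 to 24 month label. For Smad7 all 5 open diamonds, at 256 to 301, lie above the 6 filled circles, at 191 to 237, and for Tgfbr1 the 4 samples with the highest totals are the 4 lowest.

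Read over the whole panel, none of the 5 members passed the test against vehicle with either compound. With pan, 0 of 5 members passed an adjusted p of 0.05 in limma, where 2.02% of the 248 genes did, and 1 of 5 had an unadjusted p under 0.05, where 12.5% of the genes did. With C1, 0 of 5 passed, where 0.0% of the genes did, and 1 of 5 had an unadjusted p under 0.05, where 10.5% did. The median log2 difference of the members was -0.03 with pan and -0.15 with C1, beside -0.20 and -0.02 over all genes. Counts of 0 and 1 in 5 do not set the members apart from the panel, and both comparisons share the vehicle samples. The 95% intervals apply to the fits without covariates. For Tgfb1, Tgfb2, Tgfbr1 and Smad7 with pan they lay within 0.554 to 1.53 times vehicle, and for Tgfb1, Tgfb2 and Tgfbr1 with C1 within 0.614 to 1.18 times. The Tgfbr1 difference of 0.46 with the age label as a covariate lies outside its interval.

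**Figure D4:**
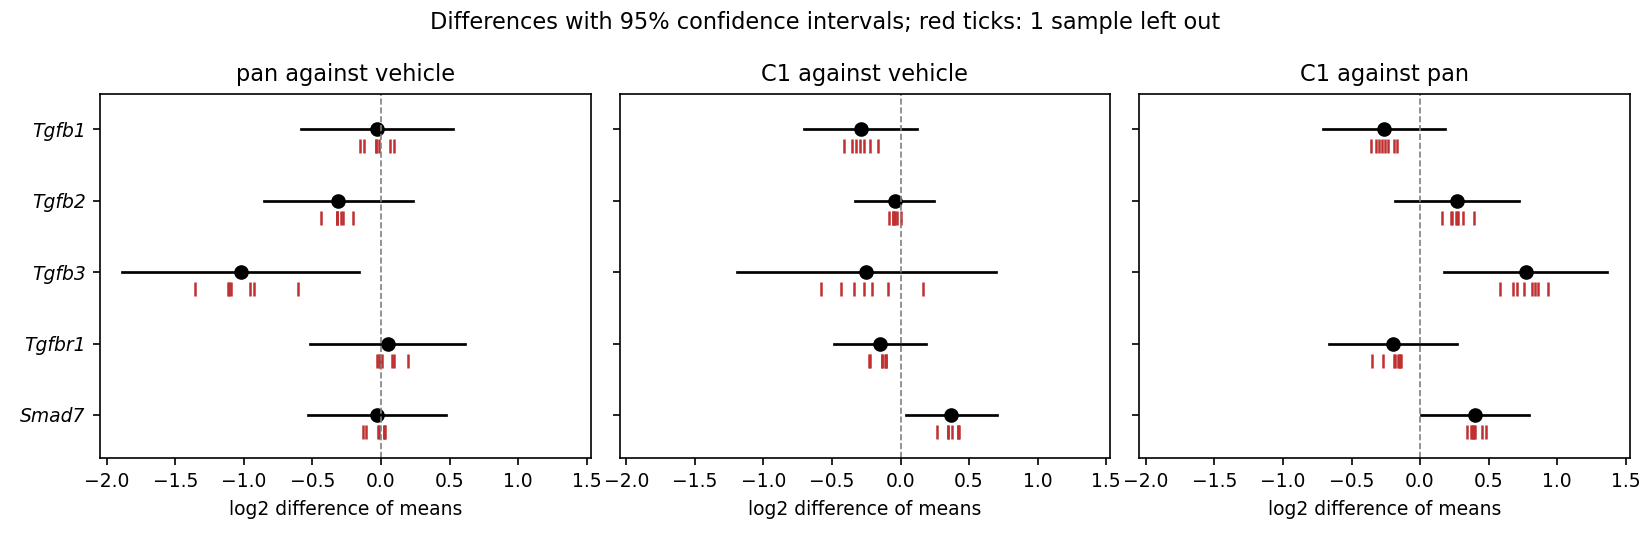
Log2 differences of the 5 genes in the 3 comparisons (dots) with 95% confidence intervals from limma (lines), and the differences with 1 sample left out in turn (red ticks). The intervals of Tgfb3 for pan (-1.89 to -0.16) and of Smad7 for C1 (0.04 to 0.70) leave out 0 but neither difference passed an adjusted p of 0.05, and the ticks of Tgfb3 are the most widely spread.

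The compounds, given at the same dose for the same time, were also compared directly, as 1 pair over the 5 genes with p-values adjusted over all 248. They differ in the Trk receptors they act on. Tgfb3 was higher with C1 than with pan in 4 of 4 C1 samples, by a log2 difference of 0.77 (standard error 0.26, unadjusted p = 0.0168 and adjusted p = 0.256 from limma), with a 95% interval from 0.18 to 1.37. The margin was small, since C1 replicate 1 had 34.4 normalized counts and pan replicate 4 had 34.0. Smad7 was likewise higher in 4 of 4 C1 samples, 258 being the lowest C1 value and 256 the highest pan value. Its log2 difference was 0.40 (standard error 0.17, unadjusted p = 0.0478 and adjusted p = 0.313), with an interval from 0.0048 to 0.80. For both genes the two-sided exact permutation test gave p = 0.0286, the smallest that 4 against 4 allow. All C1 samples were above all pan samples for 7.66% of the panel genes, and for 2 of the 5 members, and groups that did not overlap in either direction made up 7.63% of the 131 genes with a mean log2 of 5 or more. Neither difference passed the adjusted threshold, which 0.403% of the genes did, while 2 of 5 members and 15.3% of the genes had an unadjusted p under 0.05. Without pan replicate 4 the differences were 0.86 for Tgfb3 and 0.48 for Smad7. In that comparison compound, age label and total count coincide, so their effects cannot be told apart. Within the 22 to 24 month label the C1 mean exceeded pan replicate 4 by 0.16 for Smad7. The macrophage genes also lay higher with C1, in 9 of 9 genes with a median log2 difference of 0.77 beside 0.23 over all genes. The off-tissue background genes did so in 8 of 8 with a median of 0.60. In limma 0 of the 9 and 0 of the 8 passed the adjusted threshold, which 0.403% of the genes did. An unadjusted p under 0.05 was found for 4 of the 9 and 2 of the 8, beside 15.3% of the genes.

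For the other members the compounds overlapped. Tgfb1 differed by -0.26 (interval -0.71 to 0.18, adjusted p = 0.564 from limma), Tgfb2 by 0.27 (interval -0.18 to 0.72, adjusted p = 0.564) and Tgfbr1 by -0.20 (interval -0.67 to 0.27, adjusted p = 0.666). Without pan replicate 4, where compound and age label coincide, these values were -0.36, 0.24 and -0.35. A p that misses the threshold does not show that the compounds act alike, and the intervals, from the fit without covariates, show how wide the differences may be. Median centring of the samples took 0.14 off every difference between C1 and pan, which left 0.63 for Tgfb3 and 0.26 for Smad7. Within the 22 to 24 month label, where pan has 1 sample, the C1 mean differed from pan replicate 4 by 0.50 for Tgfb3, 0.36 for Tgfb2, 0.26 for Tgfbr1 and 0.02 for Tgfb1. In the joint fit with the age label as a term, which gives this same contrast, the standard errors were 0.54, 0.27, 0.22 and 0.27, and each adjusted p from limma was 0.993. The Tgfb1 and Tgfbr1 values there had the opposite sign to those of the whole groups.

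The other TGF-beta genes of the panel were grouped into 17 effectors that carry signals beside the Smads, 3 transcription factors that act with Smads, and 5 genes known to respond to TGF-beta. In each of the 3 comparisons 0 of these 25 genes passed the adjusted threshold in limma. At an unadjusted p under 0.05 there were 0 with pan, 2 with C1 (Limk1 and Jun) and 0 between the compounds, where 12.5%, 10.5% and 15.3% of the panel genes had such a p. The adjusted threshold was passed by 2.02%, 0.0% and 0.403% of the panel. Map3k7, which encodes the kinase TAK1 that TGF-beta receptors activate, had 2055 ± 241 normalized counts (SD, n = 3) with vehicle and 2387 ± 411 (SD, n = 4) with pan, while C1 gave 2169 ± 255 (SD, n = 4). Among the effectors the log2 differences with pan ran from -0.53 for Map2k6, a kinase that activates p38, to 0.36 for Daxx, an adaptor of receptor-induced cell death, with a median of -0.16. With C1 they ran from -0.53 for Limk1, a kinase of actin remodelling, to 0.21 for Mapk8, which encodes JNK1, with a median of -0.02. Between C1 and pan, Daxx was at -0.46 and Map2k6 at 0.58. The adjusted p of Limk1 with C1 was 0.427.

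Of the Smad partners, Jun had the highest log2 difference with either compound, 0.43 with pan (standard error 0.24, adjusted p = 0.517 from limma) and 0.60 with C1 (standard error 0.19, adjusted p = 0.370). It had 872 ± 110 normalized counts (SD, n = 3) with vehicle and 1182 ± 229 (SD, n = 4) with pan, while C1 gave 1332 ± 248 (SD, n = 4). All C1 samples were above the vehicle samples, as for 6.05% of the panel genes, and all of them carry the older age label. Of the effectors, Mapk8 was also higher in all C1 samples than in vehicle, and Limk1 was lower in all. The lowest differences were those of Fos with pan (-0.24) and Atf2 with C1 (-0.14). Between C1 and pan, Atf2 was at -0.38 and Fos at 0.33. Of the genes known to respond to TGF-beta, only Pdgfa and Myc reached a mean log2 of 5. The differences of this list ran from -1.17 for Mmp9, a matrix protease gene with 1 to 24 probe counts per pan sample, to 0.22 for Pdgfa with pan. With C1 they ran from -0.39 for Il11 to 0.71 for Twist2, and between C1 and pan from -0.10 for Pdgfa to 0.82 for Mmp9. Twist2 had 5 to 10 probe counts per vehicle sample.

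Profiles nearest to the other members were found by the same measure, as a description, since all genes were counted in the same libraries. For Tgfb1 they were Map3k1 and Irf5, at root mean square differences of 0.11 and 0.13 on the log2 scale over the 11 samples. For Tgfbr1 they were Birc2 and Rapgef2, at 0.086 and 0.089. For Tgfb2 one of the 2 nearest was Map3k5, at 0.12, and for Smad7 they were Il1r1 and Arg1, both at 0.17. The members' own root mean square spreads were 0.23 for Tgfb1, 0.20 for Tgfbr1, 0.21 for Tgfb2 and 0.23 for Smad7.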

How the data were processed

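Each of 2 deposited tables gives one compound and vehicle as log2 normalized counts of 248 genes. Per the study's methods, the authors divided each sample's probe counts by the geometric mean of its housekeeping probes in ROSALIND. Columns with the authors' means, fold changes and p-values were not used. Vehicle columns did not differ between the tables, which were therefore joined into one of 11 samples. Genes were named by the tables' symbols. In every sample the values were within 0.01 of whole multiples of one step, taken as 1 count. Intervals on counts are exact Poisson and cover counting error only. The panel counts probes, and the probe sequences and a genome build were not used here.

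Each comparison was fitted on the deposited log2 values of all 248 genes by limma 3.58.1 (lmFit, eBayes) in R 4.3.3, without covariates, filter or pseudocount, with Benjamini-Hochberg adjustment over all genes and a threshold of 0.05. Exact permutation tests (two-sided) used scipy 1.17.1 in Python 3.11.15 with numpy 2.4.6 and pandas 2.3.3, and figures matplotlib 3.10.9. Simulated tables with known differences served to test the limma script.

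The genes named are the 5 members, the lowest and highest of each pathway list, and the 2 genes nearest in profile to each member, of which 1 is not reported here. Of the marker genes, Mbl2 and Ifng are named because they passed the test, Trem2 for its low counts and Flt1 as the only gene of its list. Cd40lg is named for the highest difference of its list with pan, and H2-Eb1 for the highest level of its list. Map3k7 and Myc were chosen after their values were seen. Members and lists were chosen with earlier results of these data known. Alternatives were a pseudocount of 5, genes with a mean log2 of at least 5, median centring, subtraction of the mean of the 8 off-tissue genes with a floor of 1, one fit of all groups, other prior variances, total count or age label as a covariate, the replicate number as a block and leaving out each sample. Voom weights from the recovered counts were chosen after seeing the data. Of the marker lists, T cell genes summed to 22.7 to 48.8 normalized counts per sample and the endothelial gene Flt1 had 9.74 to 39.6.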

Additional observations from a re-analysis of the deposited data

Results flagged for a closer look

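Tgfbr1 in pan replicate 4 lay far below the other pan samples. Its log2 value was 11.82, against 12.39 to 12.45 in pan replicates 1 to 3, and the gap to the nearest sample was 0.899 of the range of the group. This sample also had the highest total count of the 11 and the 22 to 24 month label, and their part in the value was not tested. The groups of 4 examined in this way numbered 10 (5 genes with pan and with C1), of which chance would mark about 0.5, and this was the 1 so marked.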

How the results depend on the processing

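No member passed an adjusted p of 0.05 under any of the alternatives, where the smallest adjusted p from limma was 0.141. Of 273 alternative differences 250 kept their direction. The filter on mean log2, one fit of all groups and the other prior variances leave a difference as it is, so there the direction could not turn. With pan against vehicle, the age label, the replicate block and leaving out pan replicate 4 gave the same difference. Counts of alternatives are therefore not counts of separate checks. Directions changed mostly where the difference was small. With pan against vehicle, Tgfb1 became 0.038 and Smad7 0.037 with median centring, Tgfb1 became 7.8e-04 with the total count and 0.063 with the age label as a covariate, and Smad7 became 0.017 with voom weights. With C1 against vehicle, Tgfbr1 became 0.12 with the total count, and with the age label Tgfb1 became 0.081, Tgfb2 0.085 and Tgfbr1 0.46. With C1 against pan, Tgfbr1 became 0.026 with the total count and 0.26 with the age label, where Tgfb1 became 0.017. Tgfb2 has no value among genes with a mean log2 of at least 5 in either comparison with pan, since its mean there was lower.

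With 1 sample left out, the pan differences ranged from -0.15 to 0.10 for Tgfb1, -0.44 to -0.21 for Tgfb2, -1.36 to -0.60 for Tgfb3, -0.032 to 0.20 for Tgfbr1 and -0.13 to 0.027 for Smad7. The C1 differences from vehicle ranged from -0.42 to -0.16, -0.086 to 0.0020, -0.58 to 0.17, -0.23 to -0.10 and 0.27 to 0.42 in the same order. Tgfb3 in C1 against pan ranged from 0.58 to 0.93 and Smad7 from 0.34 to 0.48. In the same comparison Tgfb1 ranged from -0.36 to -0.17, Tgfb2 from 0.16 to 0.39 and Tgfbr1 from -0.35 to -0.14.

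With the replicate number as a block (a paired fit), Tgfb1 with pan was 0.063, and no other direction or call among the members changed. Vehicle has no replicate 4, so this equals the value without pan replicate 4 and the turn is not shown to come from the pairing. The labels state no pairing beyond the shared number, and whether same-numbered samples belong together is not known. Deviations of same-numbered samples correlated at -0.054 to 0.570 over 131 genes.

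Over the panel, 5 genes were called with pan, 3 with a pseudocount, 1 among well-counted genes and 3 with background subtracted. One fit of all groups called 6, and this joint fit called 8 with the total count and 9 with the age label as a covariate. With 1 sample left out 1 to 7 were called. With C1 the count of 0 became 1 among well-counted genes, 1 with background subtracted and 2 with a mean-dependent prior variance. In C1 against pan the 1 gene called fell to 0 with a pseudocount, median centring, one fit of all groups, either other prior variance, either covariate or voom weights, and 0 to 1 with 1 sample left out. The cause was not tested. Depth limits Tgfb2 and Tgfb3 most, with 7 to 15 counts in pan replicates 1 to 3.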
